A study of Tilletiopsis washingtonensis and Meira miltonrushii with 14 samples.

Results

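A set of 161 genes of the dimorphic fungus *Tilletiopsis washingtonensis* had far more transcript in filamentous than in yeast growth, out of 6999 genes with at least 1 read. The members were chosen from the measured values themselves. They were all genes with a mean normalized read count of at least 250 in filamentous libraries, a ratio of (filamentous mean + 1) to (yeast mean + 1) of at least 4, and a lowest filamentous value above the highest yeast value. Normalized read counts are counts divided by 1 size factor per library. Their level, ratio and lack of overlap between growth forms therefore describe the choice and are not findings.

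All libraries were poly(A)+ RNA of strain MCA 4186 (NRRL Y-63783). Cells from a 7 day preculture in potato dextrose broth were moved to Holliday's minimal medium for 3 days at 25 °C. The filamentous group (4 libraries) grew on 1% Tween40 and the yeast group (4 libraries) on 1% glucose, so growth form and carbon source cannot be told apart. The labels number the libraries without saying whether each came from its own culture, and the spread given here may be technical.

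*T. washingtonensis* belongs to the Ustilaginomycotina, the group of the smut fungi, many of which live as budding yeasts in one phase and as hyphae in another. Hyphae grow at their tips and need a steady supply of wall material, membrane and secreted protein there. Tween40 is a polyoxyethylene sorbitan ester of palmitic acid. A fungus that feeds on such an ester has to free the fatty acid outside the cell with esterases or lipases, take it up, activate it and break it down by beta-oxidation. In the smut *Ustilago maydis*, lipids including Tweens are known to induce filamentous growth. The reference used here gives locus tags and no protein products, so none of the 161 genes is assigned to any of these steps, and no sequence is shown.

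Gene counts came to 12.3 M to 30.3 M per filamentous library and 21.3 M to 29.96 M per yeast library. The shallowest library was filamentous replicate 4, and it also stood apart in many of the values below. The number of members, the coefficients of variation, the share of reads and the neighbouring pairs are also given without it. Counts of patterns between filamentous libraries are given only with it.

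The members did not stand apart from the genes just below the limit on the ratio. FA09DRAFT_184742 and FA09DRAFT_360476 were just inside, with ratios of 4.001 and 4.02, and FA09DRAFT_334790 and FA09DRAFT_329173 just outside, with 3.97 and 3.94. At the limit on the filamentous mean, FA09DRAFT_357957 and FA09DRAFT_313658 were just inside at 253 and 266, and FA09DRAFT_296462 and FA09DRAFT_300336 just outside at 243 and 222. A further 128 genes met the limits on ratio and overlap and missed the limit on the mean. The limit on overlap removed no gene, as every gene that met the other limits also had separate groups. Over all 6999 genes, 4.49% had a ratio of at least 4 and 27.3% had every filamentous value above every yeast value. With edgeR's quasi-likelihood test at an adjusted p of 0.05, all 161 members were called higher, against 31.1% of the 6727 genes tested. The same contrast chose the members, so nothing is read from that count.

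Most members were close to the limit and a few were far from it. The ratio was between 4 and 8 for 108 members, between 8 and 16 for 28, between 16 and 32 for 15 and above 32 for 10. The median ratio was 6.07 and the highest 120. The median log2 fold change in the edgeR fit was 2.60 over the members, beside 0.04 over all genes tested. The members were not a set of transcripts missing from yeast cells. Every member had reads in every yeast library, and 17 had a yeast mean under 50 normalized counts, 66 between 50 and 250, 44 between 250 and 1000 and 34 above 1000.

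**Figure D1:**
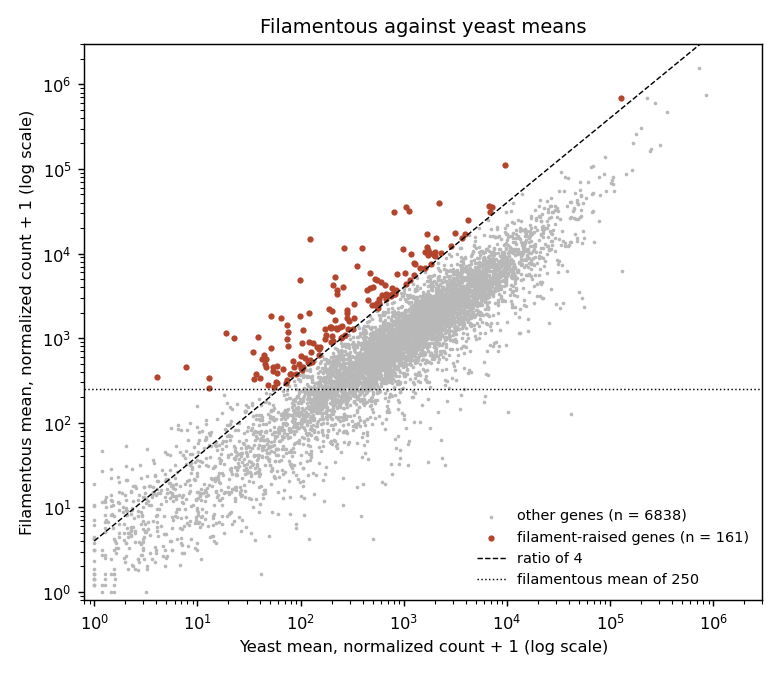
Mean normalized read count + 1 in 4 filamentous libraries (vertical, log scale) against 4 yeast libraries (horizontal, log scale), 1 point per gene, with the 161 filament-raised genes in red and the limits of the rule as lines. The red points lie along the line for a ratio of 4, with a thin scatter above it up to a ratio of 120.

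One member held a large part of the reads of the whole set. FA09DRAFT_306202 had 649477, 875599, 739991 and 456501 normalized counts in filamentous replicates 1 to 4, and 107438, 147906, 109426 and 145395 in yeast replicates 1 to 4. The groups did not overlap, and filamentous replicate 4 was the lowest of its group. This gene alone took 2.83% ± 0.486 of all gene reads in the filamentous group and 0.536% ± 0.113 in the yeast group (SD over the 4 libraries of each). It supplied 40.2% to 45.1% of the members' reads across filamentous libraries and 47.3% to 57.3% in yeast libraries, so it was already the largest contributor in yeast growth. Its log2 fold change was 2.42 (SE 0.22), below the median of the members.

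The 161 members together took 6.52% ± 1.23 of gene reads in the filamentous group and 1.03% ± 0.123 in the yeast group (SD over the 4 libraries of each). By filamentous replicate the share was 6.06%, 7.44%, 7.59% and 5.01%, and by yeast replicate 0.905%, 1.11%, 0.947% and 1.16%. Replicate 4 was again the lowest of the filamentous libraries. Without FA09DRAFT_306202 the shares were 3.69% ± 0.777 and 0.494% ± 0.0180.

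The second largest contributor, FA09DRAFT_343513, was also one of the least even between filamentous libraries. It had 73696, 163743, 175399 and 28035 normalized counts in filamentous replicates 1 to 4, and 10410, 10960, 8216 and 8637 in yeast replicates. Replicate 4 stood at 0.204 of the mean of the other 3 filamentous libraries, the lowest such value of any member, and still above every yeast library. The log2 fold change was 3.53 (SE 0.48).

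Read counts depend on transcript length as well as on abundance, so the order of genes by count is not an order of abundance. Among the 10 members with most counts, 3 had ratios above 25. FA09DRAFT_328529 had 43373, 35750, 27494 and 34006 normalized counts in filamentous replicates 1 to 4 and 942 to 1153 in yeast libraries, a ratio of 33.3. FA09DRAFT_228018 had 29566, 40966, 35362 and 16357 in filamentous replicates and 630 to 950 in yeast libraries, a ratio of 38.2. FA09DRAFT_331436 had 22735, 41475, 49570 and 13538 in filamentous replicates and 530 to 1520 in yeast libraries, a ratio of 28.2. The lowest filamentous library of these genes differed: it was replicate 3 for FA09DRAFT_328529 and replicate 4 for the other two.

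The remaining 5 genes of the leading 10 divided in the same way. FA09DRAFT_328531 had 47560, 41363, 30938 and 37589 normalized counts in filamentous replicates 1 to 4, with replicate 3 lowest, and 2022 to 2394 in yeast libraries. FA09DRAFT_330775 had 28015, 41843, 54334 and 16514 in filamentous replicates, with replicate 4 lowest, and 5792 to 8217 in yeast libraries. FA09DRAFT_330010, FA09DRAFT_328662 and FA09DRAFT_330899 were lowest in filamentous replicate 4 as well, at 16659, 11426 and 24264 normalized counts, and had ratios of 4.55, 5.94 and 5.48. In all, 8 of the 10 were lowest in filamentous replicate 4.

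**Figure D2:**
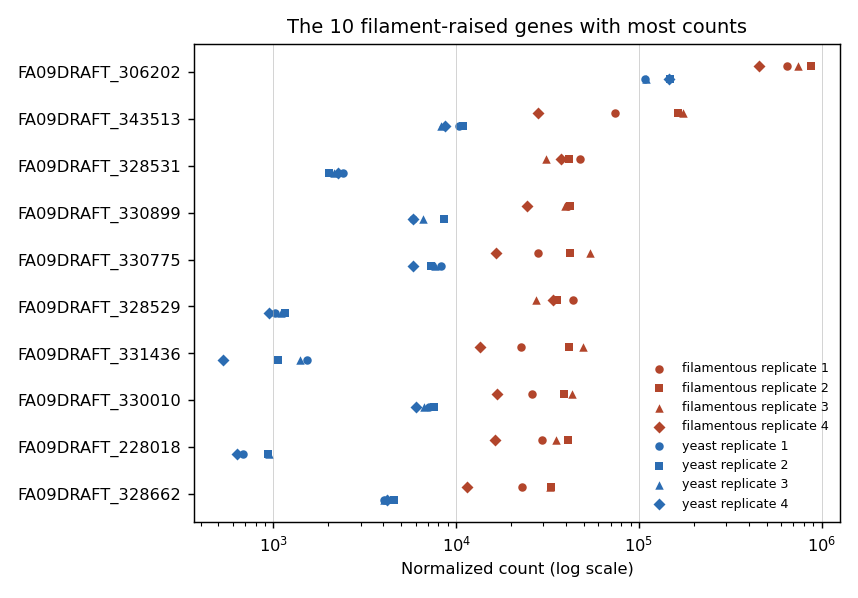
Normalized read counts (log scale) of the 10 filament-raised genes with most counts, 1 marker per library, filamentous in red and yeast in blue, with the marker shape giving the replicate number. Filamentous replicate 4 (diamonds) is the lowest red marker for 8 of the 10 genes, and no red marker overlaps the blue markers of its gene.

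The highest ratio belonged to FA09DRAFT_328530, which lies next to FA09DRAFT_328529 on the assembly. It had 17782, 13761, 10308 and 17525 normalized counts in filamentous replicates 1 to 4, and 96.4, 144, 140 and 108 in yeast replicates, a ratio of 120 and a log2 fold change of 6.93 (SE 0.24). Another pair of the 10 highest ratios belonged to genes close to the lower limit on counts. FA09DRAFT_256129 had 262, 500, 471 and 147 normalized counts in filamentous replicates, and its 4 yeast libraries held 14 reads in all, 1 read in the lowest of them. FA09DRAFT_363220 had 543, 467, 432 and 393 in filamentous replicates, and 25 reads in all in the yeast libraries. The yeast means behind these ratios of 84.4 and 58.8 rest on few reads, and the log2 fold changes had SEs of 0.53 and 0.43.

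Further members with high ratios had more filamentous reads than that pair. FA09DRAFT_345551 had 7092, 3980, 2462 and 6059 normalized counts in filamentous replicates and 48.7, 65.9, 195 and 77.7 in yeast replicates, a ratio of 50.1. It was highest in filamentous replicate 1 and lowest in replicate 3. FA09DRAFT_151432, FA09DRAFT_331692 and FA09DRAFT_327780 had ratios of 61.4, 43.7 and 35.3. Their filamentous values were 542 to 1712, 645 to 1399 and 1610 to 2199 normalized counts, against 8.29 to 25.3, 7.82 to 30.8 and 31.0 to 59.2 in yeast libraries. The yeast side of FA09DRAFT_151432 and FA09DRAFT_331692 rested on 71 and 93 reads in all, and the SEs of their log2 fold changes were 0.44 and 0.40.

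**Figure D3:**
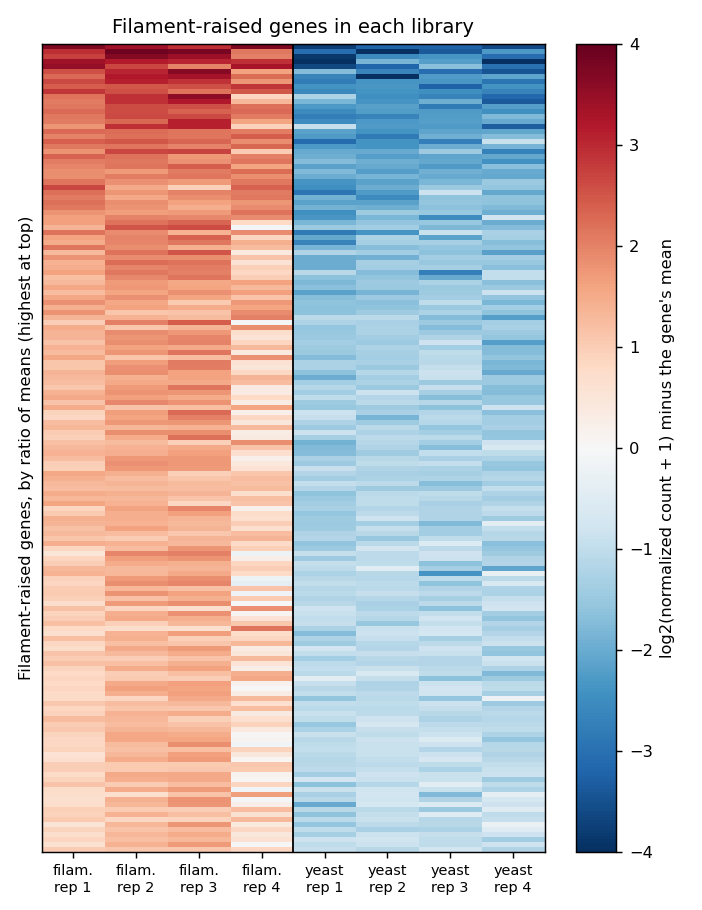
The 161 filament-raised genes (rows, highest ratio at the top) in 4 filamentous and 4 yeast libraries (columns), coloured by log2(normalized count + 1) minus the mean of the gene over the 8 libraries. All filamentous columns are on the red side of the yeast columns, as the rule requires, and the column of filamentous replicate 4 is paler than the others in many rows.

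Variation between replicates had a higher median among the members than among the other sets of genes compared. The median coefficient of variation over filamentous libraries, the SD divided by the mean, was 25.5% among members, beside 20.8% in the 186 yeast-raised genes found by the mirrored rule, 13.2% in the 5494 genes with a filamentous mean of at least 250 and 15.2% in all genes of the table. Over yeast libraries the medians were 18.8%, 15.1%, 10.3% and 11.7%. Without filamentous replicate 4 the medians over filamentous libraries were 19.1% among members, 16.5% in the yeast-raised genes, 9.81% in genes with a filamentous mean of at least 250 and 11.3% in all genes of the table. The sets differed in level, and its part in these medians was not tested. In the same order of sets, the median filamentous mean was 1812, 362, 1413 and 977 normalized counts. The median yeast mean was 227, 2970, 1406 and 964. The range of the coefficient of variation among members was wide. FA09DRAFT_328524 had 1252, 1282, 1258 and 1280 normalized counts in filamentous replicates, a coefficient of variation of 1.199%, and 193 to 267 in yeast libraries. FA09DRAFT_361347 and FA09DRAFT_80793 were almost as even, at 2.59% and 2.60%. At the other end FA09DRAFT_75309, FA09DRAFT_360028 and FA09DRAFT_330410 reached 67.55%, 65.0% and 64.6%.

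One pattern across the filamentous libraries was common among the members. Replicates 1 and 4 were both below replicates 2 and 3 in 98 of the 161 members, or 60.9%, beside 40.9% of yeast-raised genes and 29.5% of genes with a filamentous mean of at least 250. The opposite pattern, replicates 1 and 4 both above 2 and 3, was seen in 18 members, or 11.2%, beside 13.98% and 28.96%. The full order from replicate 4 through 1 and 2 to 3 was found in 60 members, or 37.3%, beside 11.3% and 13.8%. The 4 libraries have no order of their own in the labels, and this pattern was noticed in the data. The rule that chose the members used these same 4 values, and the sets beside them were chosen by other limits. How far the choice itself shapes these shares, and those for replicate 4 below, was not tested.

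Replicate 4 was the extreme of that pattern. The median member stood in it at 0.678 of the mean of the other 3 filamentous libraries, and the 10th and 90th percentiles were 0.370 and 1.26. The corresponding medians for replicates 1, 2 and 3 were 0.875, 1.17 and 1.202. Replicate 4 was the lowest filamentous library for 102 members, or 63.4%, beside 93 of the 186 yeast-raised genes and 37.5% of genes with a filamentous mean of at least 250. It stood under 0.5 of the other 3 for 51 members, or 31.7%, beside 9.68% and 2.75%. The median of all genes with a filamentous mean of at least 250 was 0.990 in this library, a value that the deposited scaling itself sets near 1. With scaling by library size alone the median member stood in it at 0.821 of the other 3, and 81 members were lowest in it. That scaling shifts all genes of a library by the same factor. The other sets were not worked out under that scaling, so 0.821 cannot be set against 0.990. With the deposited scaling, transcripts of the yeast-raised genes stood in replicate 4 at a median of 0.852 of the other 3 filamentous libraries. Their share of gene reads in it was 0.885%, against 0.855% to 0.923% in filamentous replicates 1 to 3. The part that depth, at 12.3 M reads, plays in this was not tested.

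Replicate 4 was the highest filamentous library for 24 members. FA09DRAFT_299712 had 280, 264, 250 and 710 normalized counts in filamentous replicates 1 to 4, and 64.5 to 94.2 in yeast libraries. FA09DRAFT_322622 had 3244, 2595, 2286 and 5134 in filamentous replicates and 460 to 839 in yeast libraries. FA09DRAFT_329964 had 321, 312, 435 and 630 in filamentous replicates and 57.4 to 154 in yeast libraries. In these 3 genes replicate 4 stood at 2.68, 1.90 and 1.77 of the other 3. The lowest members in replicate 4, after FA09DRAFT_343513, were FA09DRAFT_75309 at 0.226 and FA09DRAFT_64266 at 0.247. FA09DRAFT_64266 had 213, 427, 454 and 90.01 normalized counts in filamentous replicates and 37.9 to 76.9 in yeast libraries. Its lowest filamentous value was 1.17 times its highest yeast value, the smallest gap of any member.

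**Figure D4:**
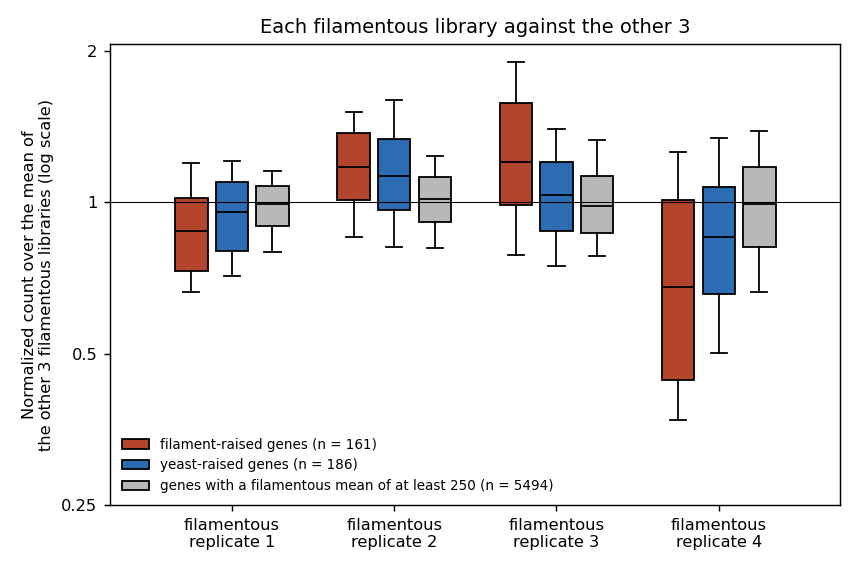
Normalized count in each filamentous library divided by the mean of the other 3 filamentous libraries (log scale), for the 161 filament-raised genes (red), 186 yeast-raised genes (blue) and 5494 genes with a filamentous mean of at least 250 (grey); lines in boxes are medians, boxes span the quartiles and whiskers the 10th to 90th percentiles. In replicate 4 the red median is 0.678 and the grey median 0.990, and the red medians are 1.17 and 1.202 in replicates 2 and 3.

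How far membership depended on single libraries was read by applying the rule to 7 libraries and looking at the eighth, which then had no part in the choice. The libraries of the other growth form, against which the eighth was set, did take part in it. The ratios in the unused library are therefore partly set by the choice. Leaving out filamentous replicate 4 gave 176 genes, of which 157 were members. In the unused replicate 4, all 176 were above their highest yeast value, the median ratio to the yeast mean was 4.29, and 91 genes (51.7%) kept a ratio of at least 4. With filamentous replicate 1, 2 or 3 left out, 166, 146 and 136 genes were chosen, and 73.5%, 93.8% and 95.6% of them kept a ratio of at least 4 in the unused library. With yeast libraries left out in turn, 152 to 164 genes were chosen and 83.5% to 94.7% kept it. In each of the 8 cases every chosen gene lay beyond the other growth form in the library that was not used. The chosen genes already had a ratio of at least 4 and separate groups in the other 7 libraries. Shares over all genes were not worked out for the unused library, so nothing is read from that count. The 4 members that needed filamentous replicate 4 were FA09DRAFT_299712, FA09DRAFT_308637, FA09DRAFT_329964 and FA09DRAFT_338383, whose ratios without it were 3.36, 3.80, 3.48 and 3.96.

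Position on the genome was not part of the rule. All 161 identifiers matched a locus tag of assembly Tilwa1, and 32 members (19.9%) lay directly beside another member in the order of protein-coding genes. They formed 20 neighbouring pairs in 12 runs, of which 9 were single pairs and 3 were longer, with 6, 5 and 3 genes. Of the 186 yeast-raised genes, 39 (21.0%) lay beside another, also in 20 pairs, so the share was close to that of the members. Both lists were chosen for a large change between growth forms. No share was worked out for genes picked without regard to it, so neither share is called high or low. The gene models overlapped in 3 of the 20 member pairs, or 15.0%, beside 16.9% of all neighbouring pairs. Reads from overlapping models cannot be told apart with certainty, since no source used here gives the strand setting of the counting.

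The run of 6 genes was even in its ratios. From FA09DRAFT_192352 through FA09DRAFT_193084, FA09DRAFT_193058, FA09DRAFT_192891 and FA09DRAFT_192935 to FA09DRAFT_192689, the ratios were 7.41, 7.06, 7.12, 6.73, 6.19 and 4.65. FA09DRAFT_193058 had 1544, 2291, 3040 and 1078 normalized counts in filamentous replicates 1 to 4 and 296, 292, 326 and 200 in yeast replicates. The models of FA09DRAFT_193084 and FA09DRAFT_193058 overlap. On one side of the run FA09DRAFT_328021 averaged 273 ± 37.2 normalized counts in filamentous growth and 225 ± 45.6 in yeast growth (SD over 4 libraries each). On the other side FA09DRAFT_328023 averaged 3819 ± 706 and 1135 ± 125.4, a ratio of 3.36 that missed the limit.

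The run of 5 genes held members of unlike ratios. They were 29.5 for FA09DRAFT_75309, 44.1 for FA09DRAFT_331033, 4.25 for FA09DRAFT_331034, 24.6 for FA09DRAFT_331035 and 4.99 for FA09DRAFT_331036. FA09DRAFT_75309 had 8186, 13710, 21767 and 3284 normalized counts in filamentous replicates 1 to 4 and 758, 334, 287 and 208 in yeast replicates. FA09DRAFT_331034 had 5497, 7481, 11199 and 2865 in filamentous replicates and 1414 to 1736 in yeast libraries. The models of FA09DRAFT_331033 and FA09DRAFT_331034 overlap. The flanking FA09DRAFT_75424 averaged 1042 ± 127 normalized counts in filamentous growth and 745 ± 59.0 in yeast growth (SD over 4 libraries each). On the other side FA09DRAFT_75247 was sparsely covered, with 20.5, 28.4, 73.8 and 0 normalized counts in filamentous replicates and 0, 0, 1.15 and 5.86 in yeast replicates. Its groups overlapped, and it was under the count filter and had no test.

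The run of 3 genes had FA09DRAFT_343513, the second largest contributor of reads, at its centre. Its neighbours FA09DRAFT_330410 and FA09DRAFT_361071 had ratios of 7.79 and 5.12, and their filamentous values were 2964, 6096, 8117 and 1454 and 625, 1077, 1196 and 282 normalized counts. Replicate 4 stood at 0.254, 0.204 and 0.291 of the other 3 filamentous libraries in the 3 genes, all among the low members. FA09DRAFT_309028 on one side averaged 3567 ± 1236 normalized counts in filamentous growth and 1292 ± 32.9 in yeast growth, and its filamentous values of 3084, 3922, 5083 and 2180 were lowest in replicate 4 too. FA09DRAFT_46456 on the other side had 50.07, 136, 117 and 16.7 normalized counts in filamentous replicates and 18.7, 13.4, 16.1 and 23.4 in yeast replicates, a ratio of 4.29. It missed the rule on its mean and because filamentous replicate 4 lay within the yeast values.

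The members of these 3 runs shared the pattern between filamentous libraries. Replicates 1 and 4 were below replicates 2 and 3 in all 14 genes, and 13 followed the order from replicate 4 through 1 and 2 to 3, the exception being FA09DRAFT_331036 with 2477 normalized counts in replicate 1 and 2655 in replicate 4. Over all members the first pattern was seen in 60.9% and the full order in 37.3%. Among genes with a filamentous mean of at least 250 they were seen in 29.5% and 13.8%. The 14 genes lie in 3 runs, some with overlapping models, and are not independent of each other. The first pattern was not limited to members. The flanking FA09DRAFT_328021, FA09DRAFT_328023, FA09DRAFT_309028, FA09DRAFT_46456 and FA09DRAFT_75247 had it too. FA09DRAFT_328021, with a ratio of 1.21, had 262, 276, 321 and 232 normalized counts in filamentous replicates 1 to 4. The flanking FA09DRAFT_75424 did not have it, at 1036, 958, 950 and 1223. The 9 single pairs were mixed. Both genes had replicates 1 and 4 below 2 and 3 in 3 pairs, 1 gene did so in 2 pairs and neither did in 4. FA09DRAFT_330335 and FA09DRAFT_43275 were a pair of the first kind, with 5989, 10722, 10642 and 3580 and with 4593, 7881, 7728 and 3514 normalized counts in filamentous replicates. FA09DRAFT_296394 and FA09DRAFT_246501 were one of the last kind, at 266 to 399 and 3237 to 4020 normalized counts over filamentous libraries and 24.9 to 60.8 and 170 to 275 over yeast libraries.

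**Figure D5:**
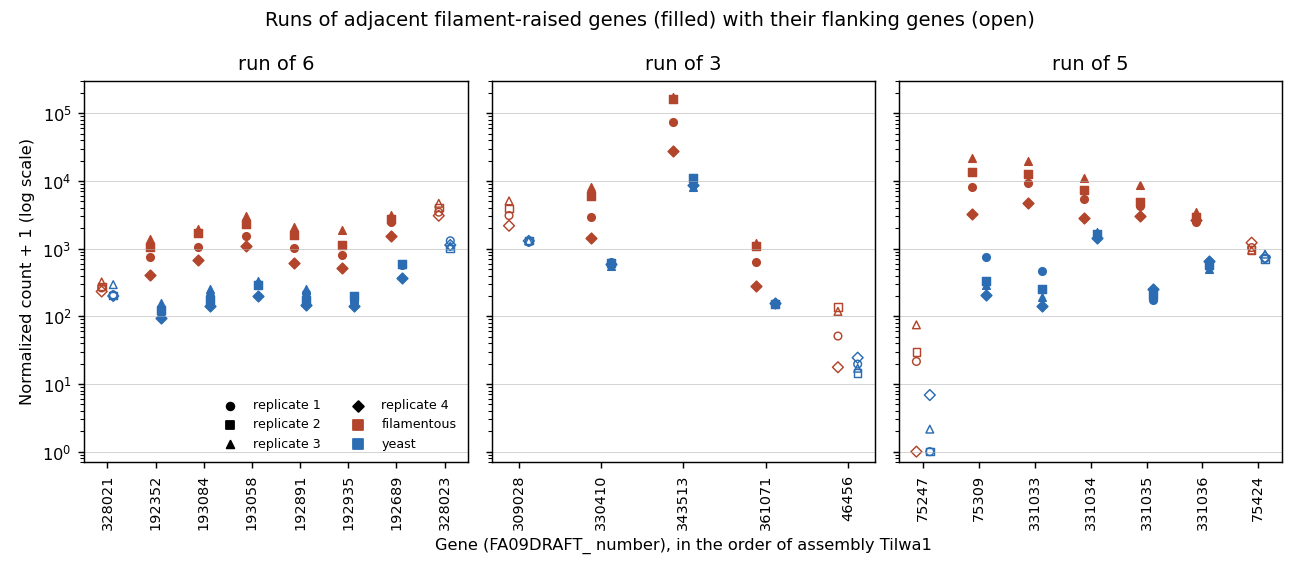
Normalized read count + 1 (log scale) of the genes in the 3 runs of neighbouring filament-raised genes (filled markers) and of the gene on either side (open markers), in the order of assembly Tilwa1, with filamentous libraries in red, yeast libraries in blue and marker shapes for replicate numbers. Among the filled red markers, replicates 1 and 4 (circles and diamonds) are below replicates 2 and 3 in all 14 genes. The same holds for the open red markers of every flanking gene except FA09DRAFT_75424.

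Genes beside the members were compared with genes elsewhere. Of 261 tested genes that were not members and lay next to one, 117 (44.8%) were called higher and 61 (23.4%) lower in filamentous growth by edgeR at an adjusted p of 0.05. Among the 6305 tested genes elsewhere, 28.8% were higher and 31.8% lower. The median log2 fold changes were 0.29 and 0.01. Beside the yeast-raised genes, 24.5% of 314 tested genes were higher and 43.0% lower. Neighbouring genes are not independent of each other, and no test of these shares was run. Gene models overlapped in 16.9% of all neighbouring pairs, and neighbours with overlapping models were not set apart here. Reads from overlapping models cannot be told apart with certainty, and their part in these shares was not tested.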

How the data were processed

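Members and lists were chosen with earlier results of these data known. Per the submitters' processing notes, HTSeq 0.7.0, DESeq2 1.20.0, TopHat2 2.1.1 and cutadapt 1.13 were used, with no roles stated. No source used here gives the build, annotation or strand setting. The deposited raw table holds read counts per protein identifier. The deposited normalized signal is that count divided by 1 factor per library, tested on the files; 12 genes with no read are absent from it. Gene reads made up 82.2% to 85.1% of each listed total; lines for unassigned reads (no feature, 11.5% to 14.5%; multiply aligned, 3.24% to 3.96%; ambiguous, at most 0.0636%) were left out. Replicate pairs differed beyond sampling noise (chi-square per degree of freedom 21.8 to 129), so each library was kept. Identifiers of 7004 genes matched locus tags of Tilwa1, used only for names and gene order, with 32 sequence ends inferred from falling positions. The other species of the series was not analysed here.

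The fit over all genes used R 4.3.3 and edgeR 4.0.16 (filterByExpr, TMM, robust quasi-likelihood, growth form alone, Benjamini-Hochberg), tested on simulated data. DESeq2 1.42.0 and limma 3.58.1 gave alternatives. SEs are the log2 fold change over the square root of the F statistic. Python 3.11.15, pandas 2.3.3, numpy 2.4.6 and matplotlib 3.10.9 did the rest. Named genes were the members with most counts, highest ratios, extreme variation or replicate 4 values, neighbours, and genes at the limits; FA09DRAFT_308637 and FA09DRAFT_338383 and the genes flanking runs were added after their values were seen. Product, protein and promoter comparisons that had been planned need annotation or sequence and were not run.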

Additional observations from a re-analysis of the deposited data

Results flagged for a closer look

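In 124 sets of 4 values a library far from the other 3 was looked for, and 6 were found, where chance gives about 1 in 20, or 6.2. That rate does not hold for genes named for extreme variation or replicate 4 values, such as FA09DRAFT_299712. In filamentous libraries, replicate 4 held 12317966 gene counts, against 27963072 to 30315719 in the others. FA09DRAFT_330899 had 24264 normalized counts in filamentous replicate 4, against 39488 to 41710 in the others. FA09DRAFT_299712 had 710 in filamentous replicate 4, against 250 to 280. In yeast libraries, FA09DRAFT_192689 had 373 in replicate 4, against 563 to 595, and FA09DRAFT_300336, just outside the rule, had 65.2 in replicate 4, against 35.8 to 40.4. FA09DRAFT_327780 had 31.0 in yeast replicate 3, against 56.0 to 59.2.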

How the results depend on the processing

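The number of members was 136 to 176 when single libraries were left out, 161 with TMM scaling and 158 with library size alone. It moved with the rule's own limits, to 256 and 81 at ratios of 3 and 6, and was 179 with a lower and 133 with a higher limit on the mean. Neighbouring pairs numbered 37 and 10 at ratios of 3 and 6, 25 without filamentous replicate 4, and 25 with 1 gene allowed between. The members' share of reads, 6.52%, was 8.76% with the 10 most counted genes of either form taken out of the total only, 4.96% with them out of both parts, 3.69% without FA09DRAFT_306202, and 5.63% to 7.49% with single libraries left out.

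The median log2 fold change of the members was 2.52 to 2.73 over 15 alternatives, and 2.53 with the replicate block among them. All 161 were called in each alternative. The same contrast chose the members, so nothing is read from that count. Same-numbered filamentous and yeast libraries correlated in their deviations at 0.159, 0.176, -0.022 and 0.148. Filamentous replicates 1, 2 and 4 correlated best with the yeast library of their own number and replicate 3 with yeast replicate 2; no label says what a number stands for, and they were not taken as pairs. Upper-quartile factors put the median of all genes at 0.14, against 0.04 with TMM. Replicate 4 was the lowest filamentous library for 102 members with TMM scaling, 81 with library size alone, and 120 of the 176 genes chosen without it. The median in it, in the same order, was 0.670, 0.821 and 0.615 of the other 3. Library size alone shifts all genes of a library by the same factor, and other genes were not worked out under it. The 176 genes were chosen for high values in the other 3 filamentous libraries, so a lower value in replicate 4 is partly set by that choice. The settings for replicate 4 were chosen after seeing the data. So were the share without FA09DRAFT_306202 or both parts, and the pairs and coefficients of variation without replicate 4. Same-strand pairs were not run, as no strand is given. Depth limits the yeast values of 6 members with fewer than 100 yeast reads in all.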
